A study of Mus musculus with 24 samples.

Results

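The unfolded protein response (UPR) and the chaperones of the endoplasmic reticulum (ER) were followed through 10 genes: *Hspa5*, *Hsp90b1*, *Pdia4*, *Calr*, *Canx*, *Dnajb9*, *Herpud1*, *Xbp1*, *Atf4* and *Ddit3*. They were taken by gene symbol and not by their values. Each gene had 1 gene-level transcript cluster, so that they make up 10 of 23332 clusters, and 129 of the 229581 exon-level probe sets carried one of these symbols. Total RNA came from skeletal muscle and cerebellum of *Usp15*-deficient mice and of wild-type mice, all 1 month old, with C57BL/6 given as the source of the samples. Each genotype and tissue was measured on 3 Affymetrix mouse exon arrays, 12 in all, and the gene-level and exon-level values are 2 summaries of the same arrays. USP15 is a deubiquitinating enzyme, which takes ubiquitin off other proteins. The sources used here do not give how the *Usp15* deficiency was made, which muscle was taken, the sex of the mice or whether an array stands for 1 animal. The p-values therefore measure only the spread between these arrays, which may be technical.

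Proteins of the secretory pathway fold in the ER with the help of chaperones. When unfolded proteins build up there, the sensors IRE1, PERK and ATF6 are activated. IRE1 splices the *Xbp1* mRNA to give an active transcription factor, PERK phosphorylates eIF2 alpha and so favours translation of ATF4, and cleaved ATF6 moves to the nucleus. Their targets include chaperones, factors of ER-associated degradation (ERAD) and, under lasting stress, the transcription factor CHOP. The sarcoplasmic reticulum of muscle is a form of ER given over to calcium storage, whereas neurons of the cerebellum make and export many membrane and secreted proteins. Much of this response is set by translation, cleavage and splicing, which a gene-level array signal does not measure.

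Promoter motifs known from the response were searched in these genes, and the matches are shown because the chaperone genes are set beside one another in the results. RefSeq promoter windows of 300 bases (assembly GRCm38.p6, mostly upstream of the annotated start) matched 10 of 10 genes. The ER stress response element (ERSE), spelled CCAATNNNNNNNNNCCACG and searched on both strands, was found in 4 of the 10 windows, those of *Hspa5*, *Hsp90b1*, *Calr* and *Canx*, against 39 of 32851 windows of all genes (0.119%). In the sequences below, the capitals mark the fixed letters of the motif, each run is written 5′ to 3′ on the strand of the gene, and an element in reverse orientation reads CGTGG before ATTGG.
Hspa5 ERSE, chr2:34772020-34772048, plus strand: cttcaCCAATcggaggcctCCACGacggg
Hsp90b1 upstream ERSE, chr10:86705633-86705661, minus strand: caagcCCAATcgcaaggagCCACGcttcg
Hsp90b1 downstream ERSE, chr10:86705528-86705556, minus strand: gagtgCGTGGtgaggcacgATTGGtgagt
Calr ERSE, chr8:84847070-84847098, minus strand: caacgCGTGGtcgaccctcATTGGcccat
Canx ERSE, chr11:50325795-50325823, minus strand: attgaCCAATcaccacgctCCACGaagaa

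Counted from the annotated start, the first base of these elements lay at -65 in *Hspa5*, at -212 and -107 in *Hsp90b1*, at -162 in *Calr* and at -145 in *Canx*. The ERSE was searched at the spacing spelled above only, so other arrangements of CCAAT and CCACG were not counted. The windows of *Herpud1*, *Pdia4*, *Dnajb9* and *Atf4* held both pieces at other spacings. In *Herpud1*, a CCAAT in reverse orientation lay close upstream of a CCACG. Each piece alone is common, in 37.4% (CCAAT) and 32.8% (CCACG) of all windows. Lack of an ERSE match thus does not show lack of an ER stress element. A core of the unfolded protein response element, TGACGTG on either strand, was found in the window of *Hspa5* alone among the 10 and in 2.01% of all windows. A core of the amino acid response element, which ATF4 and its partners are known to bind, was searched as TGATGNAAN on both strands. It was found in the window of *Herpud1* alone among the 10 and in 3.95% of all windows. The cyclic AMP response element TGACGTCA was in none of the 10 windows and in 1.79% of all windows. In the 2 sequences that follow, the capitals mark the fixed letters of these cores.
Hspa5 response element core, chr2:34771922-34771950, plus strand: gggcgtagcaaTGACGTGagttgcggagg
Herpud1 amino acid response element core in reverse orientation, chr8:94386306-94386334, plus strand: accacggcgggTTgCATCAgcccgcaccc
These matches describe the letters of the windows and are not evidence of binding in these samples.

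The *Usp15* cluster, which checks the labels, averaged 6.80 ± 0.07 in *Usp15*-deficient muscle and 8.67 ± 0.25 in wild-type muscle, and 7.08 ± 0.10 in *Usp15*-deficient cerebellum and 7.60 ± 0.08 in wild-type cerebellum (log2 signal, mean ± SD, n = 3 each), although neither change passed the adjustment over all clusters (limma, adjusted p = 0.273 in muscle and 0.996 in cerebellum). Sparcl1, which encodes the secreted synaptic protein hevin, averaged 10.11 ± 0.17 in *Usp15*-deficient muscle and 10.03 ± 0.39 in wild-type muscle, and 11.4 ± 0.09 in *Usp15*-deficient cerebellum and 11.4 ± 0.03 in wild-type cerebellum. Of 7 skeletal muscle markers, 5 were measured by a cluster with 1 symbol, and all 5 were higher in muscle than in cerebellum in both genotypes, whereas 5 of 5 granule neuron markers and 3 of 3 measured Purkinje cell markers were lower. Within muscle, the 4 measured slow-fibre markers differed with genotype by a median of 2.33 on the log2 scale without passing the test. Their median level per array was 9.30, 9.25 and 9.51 in *Usp15*-deficient muscle, against 5.34, 5.35 and 9.92 in wild-type muscle. The 2 measured Schwann cell markers had medians per array of 8.53, 10.34 and 9.33 in *Usp15*-deficient muscle, against 8.27, 8.30 and 8.65 in wild-type muscle. The median of the 5 fibroblast markers was 10.68, 10.21 and 11.44 in *Usp15*-deficient muscle, against 10.87, 10.70 and 10.54 in wild-type muscle, and was highest on the third *Usp15*-deficient array. In cerebellum, the median of the 4 choroid plexus markers was 5.54, 7.31 and 6.61 on the *Usp15*-deficient arrays. It was 5.52, 5.99 and 7.39 on the wild-type arrays, and lowest on the first array of each genotype. The part of these cell types in the values below was not tested. In such bulk tissue, fewer cells of a type and less RNA per cell cannot be told apart.

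**Figure D1:**
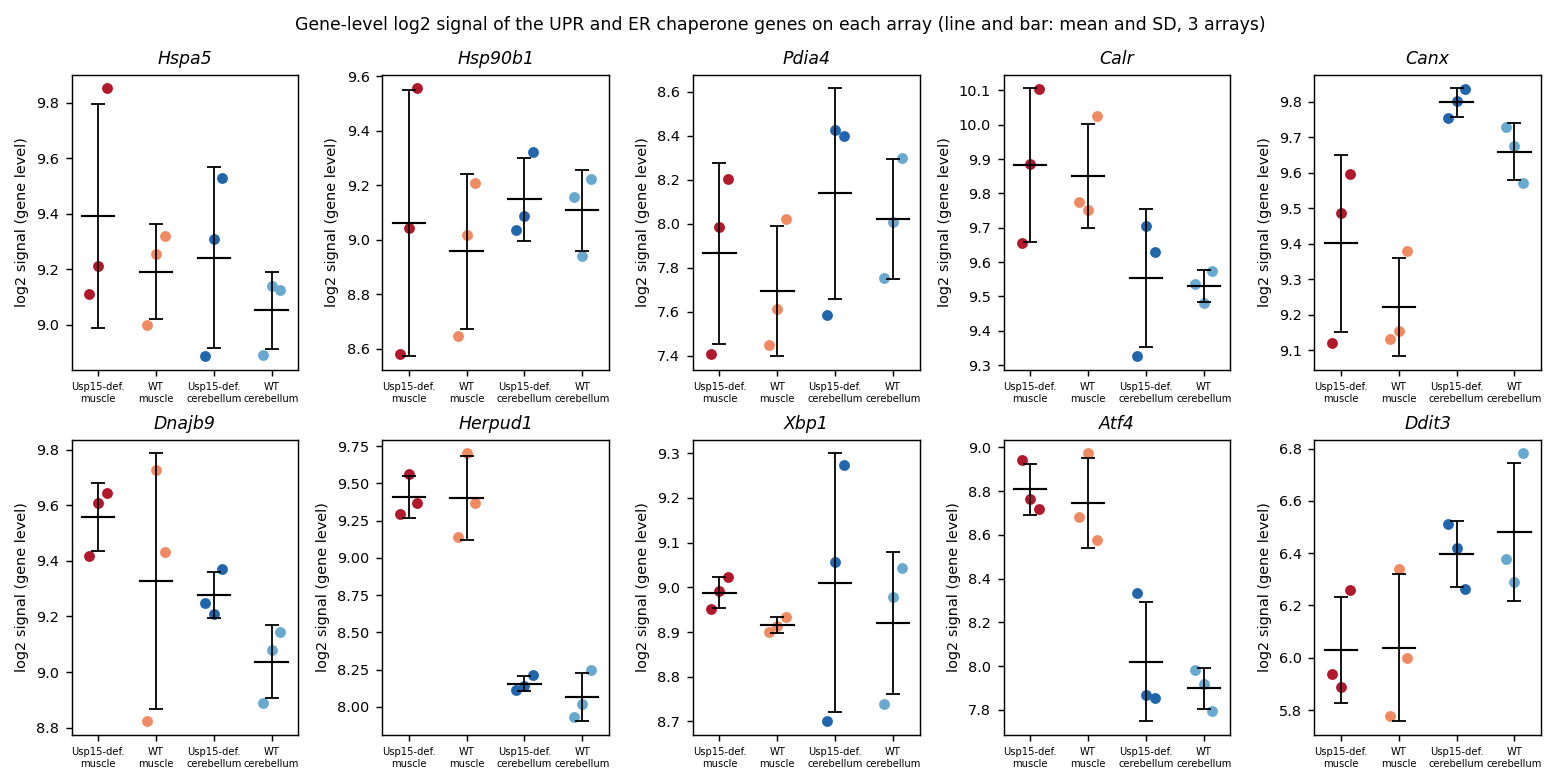
Gene-level log2 signal of the 10 genes on each of the 12 arrays, with Usp15-deficient muscle, wild-type muscle, Usp15-deficient cerebellum and wild-type cerebellum from left to right. Points are arrays, the horizontal line is the mean and the bar 1 SD (n = 3). The genotypes overlap for most genes, while Herpud1 and Atf4 separate the tissues.

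None of the 10 genes differed between *Usp15*-deficient and wild-type mice past the threshold, in muscle or in cerebellum (limma, adjusted p under 0.05 over all clusters). The background was equally empty, with 0% of all clusters called in muscle and 0% in cerebellum. At an unadjusted p under 0.05 there were again 0 of the 10 genes in either tissue, against 3.09% of all clusters in muscle and 3.54% in cerebellum. The means of 9 of the 10 genes were higher in *Usp15*-deficient muscle and those of 9 of the 10 were higher in *Usp15*-deficient cerebellum, with *Ddit3* the exception in both. The median difference over the 10 genes was 0.09 in muscle, beside 0.01 for all clusters, and 0.10 in cerebellum, beside 0.04 for all clusters (log2). Single arrays carried much of this. Without the first wild-type muscle array 5 of 10 means were higher and the median was 0.014, and without the third *Usp15*-deficient muscle array these were 6 of 10 and 0.014. Without the third *Usp15*-deficient cerebellum array 5 of 10 means were higher in cerebellum, with a median of 0.016, and quantile normalization gave 7 of 10 and 0.032 there. These differences were smaller than the spread between replicates for most genes, with standard errors of 0.10 to 0.28 in muscle and 0.08 to 0.27 in cerebellum.

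*Hspa5* encodes BiP, the main Hsp70 chaperone of the ER lumen, which also holds the stress sensors inactive. Its log2 signal was 9.11, 9.21 and 9.85 in *Usp15*-deficient muscle, against 8.997, 9.26 and 9.32 in wild-type muscle. In cerebellum it was 8.89, 9.31 and 9.53 on the *Usp15*-deficient arrays, against 8.89, 9.14 and 9.12 on the wild-type arrays. The groups overlapped in both tissues, and the highest array of each tissue was the third *Usp15*-deficient one. The difference was 0.20 (SE 0.22) in muscle and 0.19 (SE 0.18) in cerebellum, and without the third *Usp15*-deficient muscle array the muscle value was -0.030.

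*Hsp90b1* encodes GRP94, the Hsp90 chaperone of the ER. It measured 8.58, 9.04 and 9.56 in *Usp15*-deficient muscle, against 8.65, 9.02 and 9.21 in wild-type muscle. In *Usp15*-deficient cerebellum it measured 9.04, 9.09 and 9.32, against 9.16, 8.94 and 9.22 in wild-type cerebellum. The groups overlapped throughout, with differences of 0.10 (SE 0.28) in muscle and 0.04 (SE 0.12) in cerebellum. *Pdia4*, a protein disulfide isomerase that forms and rearranges disulfide bonds, measured 7.41, 7.99 and 8.20 in *Usp15*-deficient muscle, against 7.45, 7.61 and 8.02 in wild-type muscle. In cerebellum *Pdia4* had the widest spread of the 10 genes, at 7.58, 8.43 and 8.40 on the *Usp15*-deficient arrays, against 7.75, 8.01 and 8.30 on the wild-type arrays. Its differences of 0.17 (SE 0.25) in muscle and 0.12 (SE 0.27) in cerebellum were smaller than their errors.

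*Calr* and *Canx* encode calreticulin, in the ER lumen, and calnexin, in its membrane, which bind the sugar chains of newly made glycoproteins and also bind calcium. *Calr* measured 9.66, 9.89 and 10.11 in *Usp15*-deficient muscle, against 9.78, 9.75 and 10.03 in wild-type muscle, and its difference was 0.03 (SE 0.16) there and 0.02 (SE 0.12) in cerebellum. *Canx* measured 9.12, 9.49 and 9.60 in *Usp15*-deficient muscle, against 9.13, 9.15 and 9.38 in wild-type muscle. In cerebellum it was 9.76, 9.80 and 9.84 on the *Usp15*-deficient arrays, against 9.73, 9.68 and 9.57 on the wild-type arrays. The *Usp15*-deficient arrays thus all lay above the wild-type ones for *Canx* in cerebellum, where the difference was 0.14 (SE 0.08, adjusted p = 0.996), and overlapped with them in muscle, where it was 0.18 (SE 0.16).

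*Dnajb9* encodes ERdj4, an Hsp40 cochaperone of BiP. It had 9.42, 9.61 and 9.64 in *Usp15*-deficient muscle, against 8.82, 9.72 and 9.43 in wild-type muscle. In *Usp15*-deficient cerebellum it had 9.25, 9.21 and 9.37, against 8.89, 9.08 and 9.14 in wild-type cerebellum. The cerebellum groups did not overlap, and the difference of 0.24 (SE 0.10) had the smallest unadjusted p of the 10 genes, 0.058, with an adjusted p of 0.996. In muscle the difference of 0.23 (SE 0.24) rested on the low first wild-type array, without which it was -0.022. The *Dnajb9* cluster held the same values as 1 of its 4 probe sets on every array, so its gene-level value is that of a single probe set. *Herpud1*, an ER membrane protein that takes part in ERAD, differed by 0.0042 (SE 0.18) in muscle and by 0.09 (SE 0.11) in cerebellum.

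Among the transcription factors, *Xbp1* was the gene whose muscle groups did not overlap. It measured 8.95, 8.99 and 9.02 in *Usp15*-deficient muscle, against 8.90, 8.91 and 8.93 in wild-type muscle, a difference of 0.07 (SE 0.10). In cerebellum the arrays of both genotypes were further apart and overlapped, at 8.70, 9.06 and 9.27 in *Usp15*-deficient mice, against 8.74, 8.98 and 9.04 in wild-type mice. The cluster signal does not separate spliced from unspliced *Xbp1* mRNA. *Atf4*, the effector of PERK and of other kinases of eIF2 alpha, differed by 0.06 (SE 0.15) in muscle and 0.12 (SE 0.15) in cerebellum, and the cerebellum value was -0.036 without the first *Usp15*-deficient cerebellum array. *Ddit3*, which encodes CHOP, had the lowest log2 signals of the set, 5.94, 5.89 and 6.26 in *Usp15*-deficient muscle, against 5.78, 6.34 and 6.00 in wild-type muscle. Its differences were -0.01 (SE 0.19) in muscle and -0.08 (SE 0.15) in cerebellum.

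Complete separation of the genotypes was thus seen with the *Usp15*-deficient arrays above in 1 of 10 genes in muscle, where 3.38% of all clusters showed it, and in 2 of 10 in cerebellum, where 5.85% did. Separation in the other direction was seen in 0 of 10 genes in either tissue, beside 2.97% of all clusters in muscle and 3.05% in cerebellum. With 3 arrays against 3, an exact permutation test cannot give a two-sided p below 0.1.

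The genotype change in muscle did not differ from that in cerebellum past the threshold for any of the 10 genes, and 0% of all clusters were called (limma, interaction of genotype and tissue over 12 arrays). At an unadjusted p under 0.05 there were 0 of the 10 genes and 2.91% of all clusters. The difference of the changes, muscle minus cerebellum, was between -0.09 for *Herpud1* and 0.07 for *Ddit3*, with standard errors of 0.18 to 0.39. For *Hspa5* it was 0.01 with a 95% confidence interval of -0.66 to 0.68, for *Canx* 0.04 (-0.37 to 0.45), for *Calr* 0.01 (-0.44 to 0.45), for *Xbp1* -0.02 (-0.46 to 0.42) and for *Atf4* -0.06 (-0.53 to 0.42). The widest interval was that of *Pdia4*, -0.82 to 0.93. A p that misses the threshold does not show that the tissues respond alike.

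**Figure D2:**
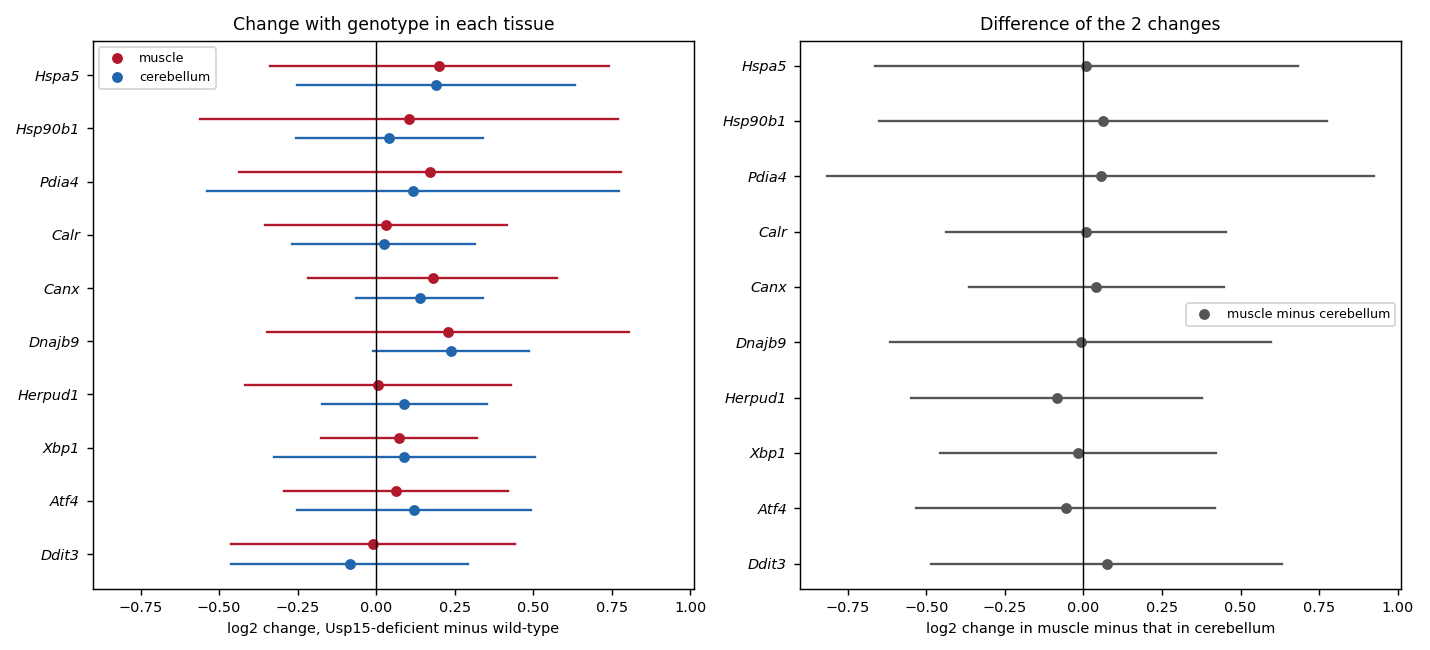
Left, log2 change with genotype (Usp15-deficient minus wild-type) of the 10 genes in muscle and in cerebellum. Right, the change in muscle minus that in cerebellum. Points are limma estimates and lines 95% confidence intervals. In the left panel 9 of 10 points in each tissue lie above 0, and every interval in both panels includes 0.

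At the exon level, 0 of the 129 probe sets were called with genotype in muscle and 0 in cerebellum, where 0.000871% of all probe sets were called in each tissue, and 0 were called in the interaction, where 0% of all were. At an unadjusted p under 0.05 there were 2 of 129 in muscle, 1 in cerebellum and 1 in the interaction, against 3.18%, 3.49% and 3.11% of all probe sets. The mean was higher in *Usp15*-deficient mice for 104 of 129 probe sets in muscle and for 90 of 129 in cerebellum. Probe sets of 1 gene share its transcripts and the arrays, so they are not replicates. Their median difference was 0.12 in muscle, beside 0.02 for all probe sets, and 0.11 in cerebellum, beside 0.05 for all. Without the third *Usp15*-deficient muscle array 66 of 129 means were higher in muscle (median 0.0071), without the first wild-type muscle array 73 of 129 were (median 0.026), and without the third *Usp15*-deficient cerebellum array 67 of 129 were higher in cerebellum (median 0.0018). Every *Usp15*-deficient array was above every wild-type array in 6 of 129 in muscle (3.62% of all probe sets) and in 6 of 129 in cerebellum (5.47% of all). The opposite was seen in 0 of 129 in both, against 3.13% and 2.77% of all.

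For *Hspa5*, 13 of 13 probe sets had a higher mean in *Usp15*-deficient muscle and 12 of 13 in *Usp15*-deficient cerebellum, with medians of 0.18 and 0.15. *Canx* had 27 of 31 and 24 of 31 higher, and *Dnajb9* 4 of 4 in both tissues. *Pdia4* had 11 of 13 higher in muscle and 6 of 13 in cerebellum, and *Ddit3* 1 of 4 in each. Probe set 4774327 of *Canx* had the smallest p in muscle. It measured 4.32, 3.83 and 4.37 in *Usp15*-deficient muscle, against 3.04, 2.24 and 3.15 in wild-type muscle, a difference of 1.36 (SE 0.30, unadjusted p = 0.0024, adjusted p = 1.0). Probe set 5118308 of *Hspa5* measured 4.17, 4.58 and 4.80 in *Usp15*-deficient muscle, against 3.46, 3.72 and 3.89 in wild-type muscle, a difference of 0.83 (SE 0.24, unadjusted p = 0.010, adjusted p = 1.0). Neither pair of groups overlapped, and both probe sets were dim, since the array medians of all probe sets in muscle lay between 5.98 and 6.14.

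In cerebellum the smallest p was that of *Canx* probe set 5581928, at 4.40, 4.80 and 5.13 in *Usp15*-deficient mice, against 4.07, 4.30 and 4.35 in wild-type mice (difference 0.54, SE 0.23, unadjusted p = 0.048). This probe set was dim too, since the array medians of all probe sets in cerebellum lay between 6.55 and 6.64. The interaction was largest for probe set 4673135 of *Ddit3*, whose difference was 0.53 (SE 0.35) in muscle and -0.52 (SE 0.23) in cerebellum (interaction 1.05, SE 0.43, unadjusted p = 0.033, adjusted p = 1.0). It measured 5.66, 5.49 and 5.89 in *Usp15*-deficient muscle, against 5.44, 4.37 and 5.64 in wild-type muscle. In cerebellum it measured 5.56, 6.14 and 5.62 on the *Usp15*-deficient arrays, against 6.04, 6.42 and 6.42 on the wild-type arrays. The groups overlapped in both tissues. Taken relative to the gene-level value on the same array, 0 of 128 probe sets changed with genotype in muscle or in cerebellum, where 0.00117% of all such probe sets were called in each.

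*Herpud1* and *Atf4* were higher in muscle than in cerebellum in both genotypes, and *Canx* passed the threshold as lower in muscle. *Canx* had the opposite sign once the arrays were centred on their medians, and stayed lower after quantile normalization. Thus 3 of 10 genes were called in *Usp15*-deficient mice and the same 3 in wild-type mice. Among all clusters, 12.9% were called as higher in muscle and 57% as lower in *Usp15*-deficient mice, and 13.1% and 54.6% were in wild-type mice. This uneven split went with array medians of 5.43 to 5.51 in *Usp15*-deficient muscle and 6.13 to 6.17 in *Usp15*-deficient cerebellum, and of 5.41 to 5.48 in wild-type muscle and 6.09 to 6.16 in wild-type cerebellum (log2). The median difference of all clusters was -0.62 in both genotypes. How the arrays were scaled is not given, so a shift from scaling and a real difference between the tissues cannot be told apart. All 10 genes lay above the median of all clusters in both genotypes, with a median of 0.06 in *Usp15*-deficient and 0.07 in wild-type mice. Of the called clusters, 18.5% in *Usp15*-deficient and 19.3% in wild-type mice were higher in muscle, which became 57.5% and 58.6% with arrays centred on their medians and 52.5% and 53.3% after quantile normalization.

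*Herpud1* had 9.29, 9.57 and 9.37 in *Usp15*-deficient muscle, against 8.12, 8.14 and 8.21 in *Usp15*-deficient cerebellum. In wild-type mice it had 9.14, 9.70 and 9.37 in muscle, against 7.93, 8.02 and 8.25 in cerebellum. Every muscle array was above every cerebellum array, with a difference of 1.25 (SE 0.11, 2.38-fold, adjusted p = 0.00017) in *Usp15*-deficient and 1.34 (SE 0.18, 2.53-fold, adjusted p = 0.000788) in wild-type mice. *Atf4* had 8.94, 8.76 and 8.72 in *Usp15*-deficient muscle, against 8.33, 7.87 and 7.86 in *Usp15*-deficient cerebellum. In wild-type mice it had 8.68, 8.97 and 8.58 in muscle, against 7.98, 7.92 and 7.80 in cerebellum. Its groups did not overlap either, with a difference of 0.79 (SE 0.16, 1.73-fold, adjusted p = 0.0053) in *Usp15*-deficient and 0.85 (SE 0.14, 1.80-fold, adjusted p = 0.0022) in wild-type mice. Both genes were called with the same sign in 12 of 12 alternative settings in each genotype, where the adjusted p reached at most 0.0044 for *Herpud1* and 0.022 for *Atf4*.

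*Canx* was lower in muscle, with a difference of -0.40 (SE 0.15, adjusted p = 0.047) in *Usp15*-deficient and -0.44 (SE 0.12, adjusted p = 0.018) in wild-type mice. Both values lay above the median of all clusters. Its arrays, given above, did not overlap between tissues, but the call depended on single arrays and on the kind of scaling. The call in *Usp15*-deficient mice was lost without any one of the 3 cerebellum arrays or without the first or second muscle array (adjusted p = 0.066 to 0.122). The call in wild-type mice was lost without the first or second cerebellum array or the second muscle array (adjusted p = 0.054 to 0.060). With arrays centred on their medians, *Canx* was 0.27 higher in muscle of *Usp15*-deficient mice and 0.23 higher in muscle of wild-type mice, past the threshold in neither. After quantile normalization it was still called as lower in muscle, at -0.59 in *Usp15*-deficient and -0.64 in wild-type mice.

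The other 7 genes did not pass the threshold between tissues. *Hspa5* differed by 0.15 (SE 0.25) in *Usp15*-deficient and 0.14 (SE 0.14) in wild-type mice, and *Xbp1* by -0.02 (SE 0.16) and -0.0044 (SE 0.12). *Calr* differed by 0.33 (SE 0.16, adjusted p = 0.114) in *Usp15*-deficient mice and by 0.32 (SE 0.12, adjusted p = 0.053) in wild-type mice, and *Dnajb9* by 0.28 (SE 0.11, adjusted p = 0.061) and 0.29 (SE 0.24, adjusted p = 0.310). *Ddit3* differed by -0.37 (SE 0.14, adjusted p = 0.053) in *Usp15*-deficient and -0.44 (SE 0.20, adjusted p = 0.088) in wild-type mice, and its sign turned to 0.23 and 0.12 after quantile normalization. With arrays centred on their medians, *Hspa5* was called as higher in muscle in both genotypes, at 0.82 (adjusted p = 0.030) in *Usp15*-deficient and 0.81 (adjusted p = 0.0020) in wild-type mice, and so were *Xbp1*, at 0.65 (adjusted p = 0.013) and 0.67 (adjusted p = 0.0030), *Calr* and *Dnajb9*. *Hsp90b1* was called as higher in wild-type mice alone under that centring, at 0.52 (adjusted p = 0.034). After quantile normalization none of these 5 genes was called. Single arrays moved *Dnajb9* and *Ddit3* past the threshold. *Dnajb9* was called without the first muscle array in *Usp15*-deficient mice (adjusted p = 0.031) and without the first muscle array in wild-type mice (adjusted p = 0.027). *Ddit3* was called as lower in muscle without the third muscle array in *Usp15*-deficient mice (adjusted p = 0.018) and without the second muscle array in wild-type mice (adjusted p = 0.043).

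**Figure D3:**
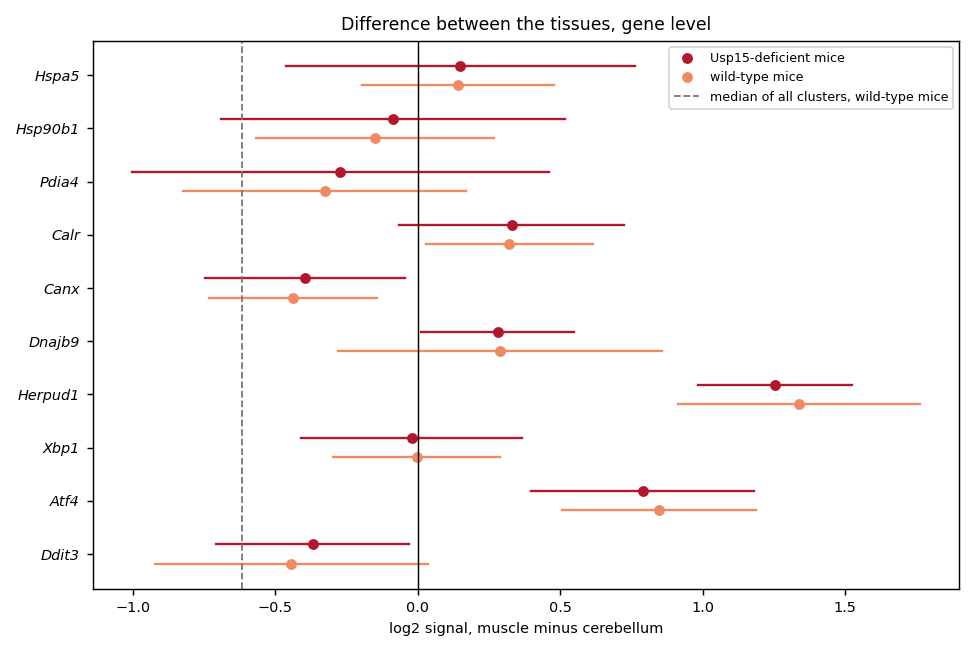
Muscle minus cerebellum (log2 signal, gene level) of the 10 genes in Usp15-deficient and in wild-type mice. Points are limma estimates, lines 95% confidence intervals and the dashed line the median of all clusters in wild-type mice, -0.62. All 10 genes lie to the right of the dashed line, with Herpud1 and Atf4 furthest.

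At the exon level, 30 of the 129 probe sets were called between tissues in *Usp15*-deficient mice and 25 in wild-type mice, of which 22 were called in both with the same sign. In *Usp15*-deficient mice 12 were higher and 18 lower in muscle, where 13.4% and 39.1% of all probe sets were called. In wild-type mice 10 were higher and 15 lower, where 13.2% and 35.4% of all were called. The median difference of all probe sets was -0.48 in *Usp15*-deficient and -0.47 in wild-type mice. With arrays centred on their medians, the higher share of all called probe sets became 55.4% in *Usp15*-deficient and 55.5% in wild-type mice, in place of 25.6% and 27.2%.

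Most of these calls fell in *Herpud1*, *Atf4* and *Canx*. *Herpud1* had 7 of 10 probe sets higher in muscle of *Usp15*-deficient mice and 6 of 10 in wild-type mice, 6 of them shared, with probe set 4676273 at 1.47 (SE 0.18) and 1.46 (SE 0.23). *Atf4* had 4 of 6 probe sets higher and 1 lower in both genotypes, the same 5 each time. *Canx* had 15 of 31 probe sets lower in muscle of *Usp15*-deficient mice and 10 of 31 in wild-type mice, all 10 among the 15. These counts are near the 39.1% and 35.4% of all probe sets called as lower, and the *Canx* medians of -0.48 and -0.56 are near those of all probe sets. *Hspa5*, *Pdia4*, *Dnajb9* and *Xbp1* had none called in either genotype, although 10 of 13 probe sets of *Hspa5* had a higher mean in muscle and 12 of 13 of *Pdia4* a lower one, in each genotype. *Hsp90b1* had 2 of 21 called as lower, in wild-type mice.

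**Figure D4:**
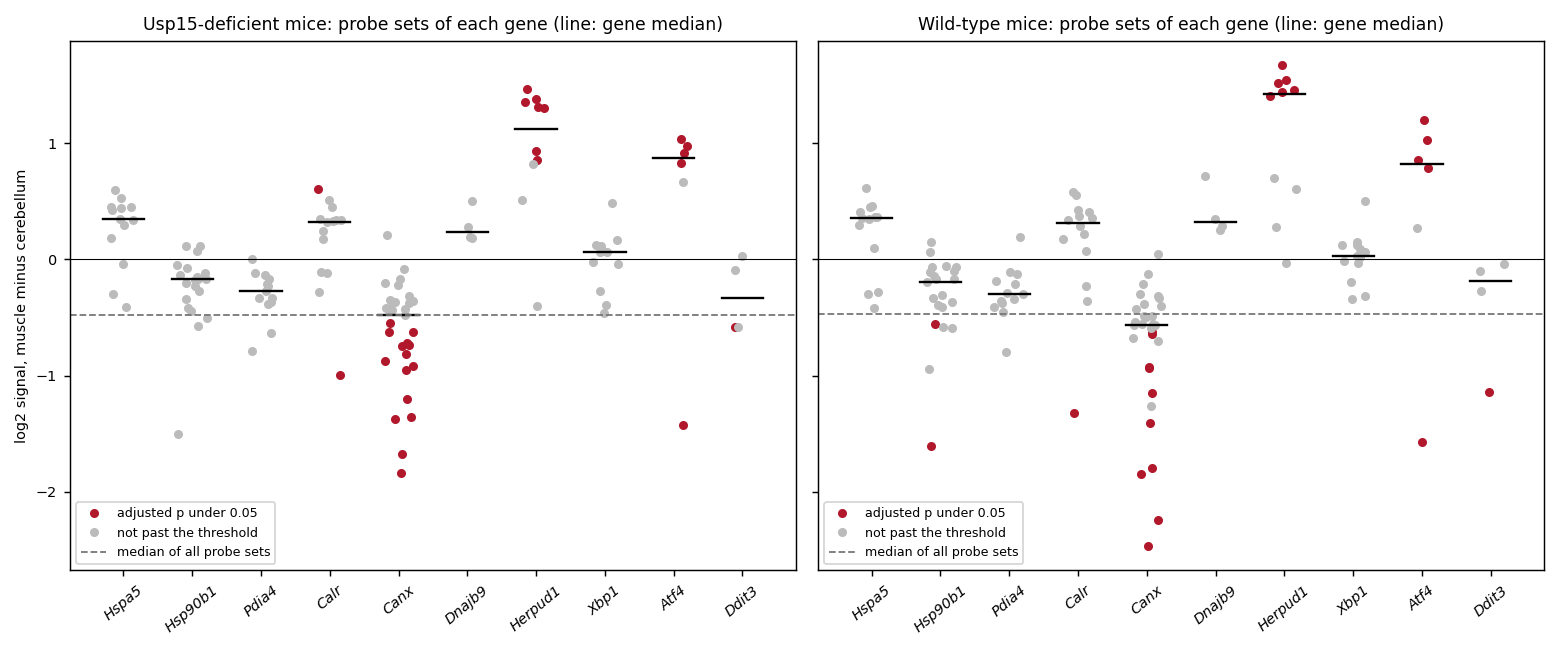
Muscle minus cerebellum (log2 signal) of each of the 129 probe sets, grouped by gene, in Usp15-deficient mice (left) and wild-type mice (right). Red points passed an adjusted p of 0.05 over all probe sets, the black line is the median of the gene and the dashed line the median of all probe sets. Probe sets of Herpud1 lie mostly above 0 and those of Canx mostly below it, and single probe sets of Atf4 and Calr lie apart from the others of their gene.

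A few probe sets did not follow their gene. Probe set 5339673 of *Atf4* was lower in muscle while the gene was higher. It measured 5.78, 5.47 and 5.49 in *Usp15*-deficient muscle, against 7.25, 7.22 and 6.54 in *Usp15*-deficient cerebellum. In wild-type mice it measured 5.46, 5.48 and 4.44 in muscle, against 6.72, 7.11 and 6.28 in cerebellum. The tissues did not overlap in either genotype. The difference was -1.42 (SE 0.25, adjusted p = 0.0024) in *Usp15*-deficient and -1.58 (SE 0.35, adjusted p = 0.0065) in wild-type mice, where quantile normalization ended the call. Relative to the *Atf4* gene-level value the difference was -2.21 (SE 0.20, adjusted p = 0.00078) in *Usp15*-deficient and -2.42 (SE 0.29, adjusted p = 0.0025) in wild-type mice.

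Probe set 5270267 of *Herpud1* measured 3.35, 3.88 and 3.58 in *Usp15*-deficient muscle, against 3.58, 4.27 and 4.17 in *Usp15*-deficient cerebellum, and overlapped between tissues while the gene did not. It was far below the array medians in every group, so its distance from the *Herpud1* gene-level value mainly restates the difference of the gene, and it is among the probe sets left out with the dimmest 25%. A brighter probe set of the same gene, 4944993, measured 7.76, 7.95 and 7.53 in *Usp15*-deficient muscle, against 7.08, 7.28 and 7.35 in *Usp15*-deficient cerebellum, and its relative difference was -0.74 (SE 0.15) in *Usp15*-deficient and -1.06 (SE 0.16) in wild-type mice. In *Usp15*-deficient mice that call was lost without the second or the third cerebellum array (adjusted p = 0.055 and 0.056) and with the median probe set in place of the gene-level value, where it was -0.39 (adjusted p = 0.188). Probe set 5317665 of *Calr* was lower in muscle, at -0.99 (SE 0.26) in *Usp15*-deficient and -1.32 (SE 0.37) in wild-type mice. It was dim, at 4.84, 4.74 and 3.97 in *Usp15*-deficient muscle, against 5.52, 5.48 and 5.53 in *Usp15*-deficient cerebellum, below the array medians of all probe sets. In wild-type mice it was left out with the dimmest 25%. It was not called after centring or quantile normalization, nor in wild-type mice without the first or the third cerebellum array or the second muscle array. The positions of these probe sets in the transcripts were not analysed here.

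In all, 7 of 128 probe sets were called relative to their gene in *Usp15*-deficient mice and 11 of 128 in wild-type mice, with 6 shared. In *Usp15*-deficient mice 1 was relatively higher in muscle and 6 lower, where 10.5% and 9.81% of all such probe sets were called. In wild-type mice 0 were higher and 11 lower, where 8.23% and 7.74% were called. Each of these counts was near or below the share of all such probe sets. Relative to its gene, probe set 5339673 of *Atf4* was called in 10 of 10 alternatives in both genotypes.

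Across arrays of the same tissue, several chaperone genes deviated in the same direction as *Hspa5*. After the mean of each tissue was taken off, the correlation with *Hspa5* over the 12 arrays was 0.834 for *Pdia4*, 0.772 for *Hsp90b1*, 0.772 for *Calr*, 0.728 for *Xbp1*, 0.666 for *Canx* and 0.582 for *Dnajb9*. It was 0.306 for *Herpud1*, 0.248 for *Ddit3* and -0.416 for *Atf4*. The median over 14859 other genes was 0.131, with 90% of them between -0.522 and 0.686. These are Pearson correlations given as a description, without a p, over arrays whose genotypes and array-wide levels they share. The chaperones and *Xbp1* therefore stood toward the upper end of all genes, and *Atf4* stood on the other side of 0. Over the 6 muscle arrays and then the 6 cerebellum arrays, the correlation with *Hspa5* was 0.804 and 0.882 for *Pdia4* and 0.805 and 0.723 for *Calr*. It was 0.918 and 0.493 for *Hsp90b1*, 0.790 and 0.427 for *Canx*, 0.173 and 0.585 for *Herpud1* and 0.672 and -0.341 for *Ddit3*.

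In every group the first array was the lowest for *Hspa5*, *Pdia4* and *Xbp1*, but not for *Hsp90b1*, *Calr* or *Canx*. The choroid plexus markers were likewise lowest on the first cerebellum array of each genotype. Whether the replicate number or the choroid plexus content had a part in the correlations was not tested. Part of the likeness rested on the third *Usp15*-deficient array of each tissue, the 2 arrays farthest from the median in *Hspa5*. Without them the correlation with *Hspa5* was 0.867 for *Pdia4*, 0.734 for *Xbp1* and 0.707 for *Calr*, but 0.473 for *Hsp90b1* and 0.310 for *Canx*. Spearman's rho over the 12 arrays was 0.923 for *Pdia4*, 0.818 for *Calr*, 0.790 for *Xbp1*, 0.657 for *Hsp90b1*, 0.615 for *Canx* and -0.503 for *Atf4*. Quantile normalization lowered the correlation to 0.657 for *Hsp90b1* and 0.468 for *Canx* and left that of *Pdia4* at 0.827. Between other pairs, *Pdia4* and *Calr* had 0.904, *Dnajb9* and *Herpud1* had 0.817, and *Calr* and *Atf4* had -0.753.

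**Figure D5:**
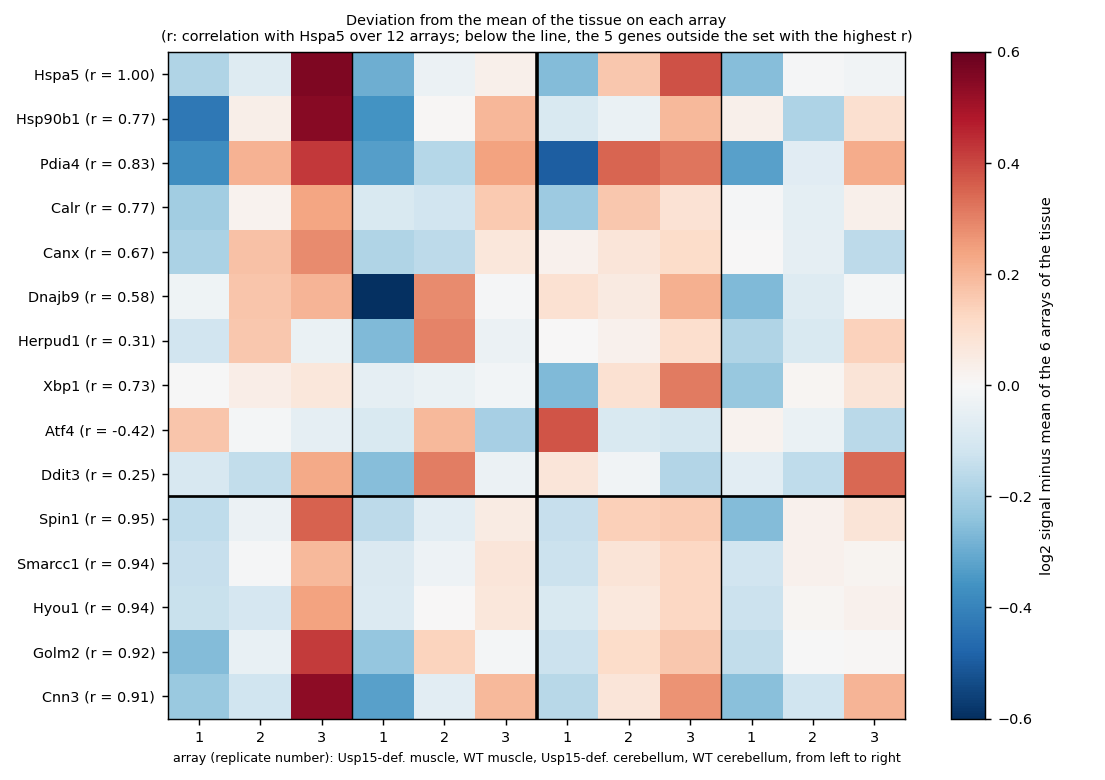
Log2 signal minus the mean of the 6 arrays of the same tissue, for the 10 genes and, below the line, the 5 other genes with the highest correlation with Hspa5 (r beside each name). Colours are capped at the ends of the scale. Columns are arrays in the order Usp15-deficient muscle, wild-type muscle, Usp15-deficient cerebellum and wild-type cerebellum. The third Usp15-deficient muscle array is high and the first array of several groups is low for most chaperones, while Atf4 differs.

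The 5 genes outside the set with the highest correlation with *Hspa5* were *Spin1* (0.946), *Smarcc1* (0.942), *Hyou1* (0.939), *Golm2* (0.921) and *Cnn3* (0.914). They were chosen by that value out of 14859, of which 165 (1.11%) were over 0.8. Each of them, like *Hspa5*, lay below the mean of its tissue on the first array of every group. *Hyou1* encodes another large chaperone of the ER lumen. Of 15 measured ER chaperones, foldases and cochaperones outside the set, 7 were over 0.8 with a median of 0.756: *Hyou1*, *Manf*, *Pdia3*, *P4hb*, *Calu*, *Sdf2l1* and *Pdia6*. For 5 measured sensors and transducers the median was 0.231. Their extremes were *Eif2ak3*, which encodes PERK, at 0.820 and *Ern1*, which encodes IRE1 alpha, at -0.515. The median was 0.556 for 12 ERAD and translocation genes, 0.0867 for 14 targets of the integrated stress response and 0.209 for 5 cytosolic heat shock genes.

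The wider pathway was likewise without a call between genotypes. Of the 15 ER chaperones and foldases 0 were called, 12 had a higher mean in *Usp15*-deficient muscle and 13 in *Usp15*-deficient cerebellum, with medians of 0.06 and 0.09. Of 12 ERAD and translocation genes 0 were called, with medians of 0.03 in muscle and 0.07 in cerebellum, and of 5 sensors and transducers 0 were called, with medians of 0.04 and 0.10. The 14 integrated stress response targets, mostly genes induced through ATF4 and its partners, had 0 called. Of their means, 11 of 14 were higher in *Usp15*-deficient muscle (median 0.17) and 5 of 14 in *Usp15*-deficient cerebellum (median -0.030). Among them *Atf3*, a stress-induced transcription factor, differed by 0.91 (SE 0.45) in muscle and -0.24 (SE 0.22) in cerebellum. These were the highest of the 14 values in muscle and the lowest in cerebellum. *Sesn2*, a sestrin that restrains mTORC1, differed by 0.29 (SE 0.12) and -0.09 (SE 0.08), and its interaction of 0.38 (SE 0.13) had an unadjusted p of 0.017 and an adjusted p of 1.0. The lists share arrays and were not tested as sets, and their fits were not repeated with single arrays left out.

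Between tissues, members of most of these lists were called in both directions. Of the 15 ER chaperones and foldases, 3 were called as higher and 5 as lower in muscle of *Usp15*-deficient mice, and 3 as higher and 7 as lower in wild-type mice. The counts lower in muscle were below, or near, the 57% and 54.6% of all clusters called so, and those higher compare with 12.9% and 13.1%. The 3 were *P4hb*, the protein disulfide isomerase that is also the beta subunit of prolyl 4-hydroxylase (1.37 and 1.32), *Calu*, which encodes the calcium-binding protein calumenin (0.94 and 1.06), and *Txndc5* (0.79 and 0.88), where the first value is from *Usp15*-deficient and the second from wild-type mice. *Fkbp2*, an ER prolyl isomerase, was lower at -1.78 and -1.69, and *Ero1l*, the oxidase that reoxidises protein disulfide isomerases, at -1.36 and -1.33. *Hyou1* was at -0.55 and -0.49, above the median of all clusters. Of the 5 sensors and transducers, 0 were called as higher and 2 as lower in muscle in each genotype, below the share of all clusters called as lower. *Eif2ak3*, of that list, was lower in muscle at -0.88 and -0.84. Of the 14 integrated stress response targets 4 were higher and 5 lower in *Usp15*-deficient mice and 4 higher and 7 lower in wild-type mice. The lower counts were again at or below the share of all clusters. The higher counts were above the 12.9% and 13.1% of all clusters called so. The targets included *Asns*, asparagine synthetase, at -2.78 and -3.04 and *Chac1*, which degrades glutathione, at 1.72 and 1.5. *Atf4*, higher in muscle, thus stood beside targets that were called in both directions. The 5 fibroblast markers were higher in muscle by a median of 3.77 in *Usp15*-deficient and 3.86 in wild-type mice, with 5 of 5 called in each, and their part in these values was not tested.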

How the data were processed

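Per the labels, total RNA was extracted with Isogen II, and biotin-labelled DNA made from it was hybridised to Affymetrix mouse exon arrays. The deposited values are log2 signals, 1 table of gene-level transcript clusters and 1 of exon-level probe sets made by the authors from the same 12 arrays. Background correction, normalization, summarisation and software: not given in the sources used here. Values were used as deposited. Such values give no depth, and the number of arrays limits the precision. Genes were named from GEO's platform annotation. Of 23332 clusters 14996 had 1 symbol, 1019 several and 7317 none, and of 229581 probe sets these were 209279, 4446 and 15856. Only features with 1 symbol were named.

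Groups came from the labels. Two-sided moderated tests were fitted with limma 3.58.1 (functions lmFit and eBayes) under R 4.3.3, with p-values adjusted by Benjamini-Hochberg over all features and a threshold of 0.05, on the 6 arrays of a tissue or genotype, and the interaction on 12 arrays. Intervals are at 95%. Probe sets were also tested after subtracting their own gene's cluster value, over 171159 probe sets, leaving out 488 that equal it, 1 of them of *Dnajb9*. A promoter motif was counted on both strands. The fits were tested on simulated arrays. The genes, the lists and the tests were chosen with earlier results of these data known. All 10 genes were named. Probe sets were named if called (at most the 3 of largest change a gene, of which the text gives some) or, where fewer than 3 were called, by the smallest p. The 5 genes most like *Hspa5* were named by their correlation. Genes of the wider lists were named as examples, some of them the extremes of their list.

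Alternatives were 12 arrays in one fit, a block for the replicate number, dropping each array in turn, quantile normalization, centring on array medians, a trended and robust prior, leaving out the dimmest 25%, the spread of each feature alone, and the median probe set as the reference within a gene. A sign change was counted as a reversal only where the value was called in either setting or moved by more than its standard error. After group means were taken off, same-numbered arrays of the 2 genotypes had gene-level correlations of 0.218, 0.203 and 0.103 in cerebellum. In muscle these were 0.305, 0.0641 and 0.160. The exon-level values were close to them, at 0.225, 0.194 and 0.0918 in cerebellum and 0.306, 0.0608 and 0.171 in muscle. All were positive, and the labels do not say that a number marks a shared animal or day.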

Additional observations from a re-analysis of the deposited data

How the results depend on the processing

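Between genotypes, 0 of the 10 genes and 0 of the 129 probe sets were called in muscle, in cerebellum or in the interaction under every alternative run. Over 130 alternative values in each tissue and 180 in the interaction, the lowest adjusted p at the gene level was 0.998 in muscle, 0.833 in cerebellum and 0.984 in the interaction. Leaving out 1 array gave -0.030 to 0.34 for *Hspa5* in muscle, -0.022 to 0.43 for *Dnajb9* in muscle and -0.036 to 0.20 for *Atf4* in cerebellum. With the replicate number as a block, the counts between genotypes stayed at 0, and between tissues 2 genes and 28 probe sets were called in *Usp15*-deficient mice and 3 genes and 23 probe sets in wild-type mice. Same-numbered arrays of the tissues had gene-level correlations of both signs, from -0.0654 to 0.101.

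Between tissues, centring on array medians gave 6 called genes in *Usp15*-deficient and 7 in wild-type mice in place of 3, and 48 probe sets in place of 25 in wild-type mice. It turned *Hsp90b1* (0.58 and 0.52), *Pdia4* (0.40 and 0.35), *Canx* (0.27 and 0.23), *Xbp1* (0.65 and 0.67) and *Ddit3* (0.30 and 0.23) to a higher mean in muscle (*Usp15*-deficient, then wild-type mice), and quantile normalization turned *Ddit3* (0.23 and 0.12). The trended and robust prior gave 5 genes in *Usp15*-deficient mice, 47 probe sets in wild-type mice and 7 relative probe sets in place of 11 in wild-type mice. Leaving out the dimmest 25% gave 5 genes in *Usp15*-deficient mice, and 3 relative probe sets in place of 7 in *Usp15*-deficient and 5 in place of 11 in wild-type mice. Leaving out 1 array gave 19 to 33 probe sets in *Usp15*-deficient mice (30 with all, and 19 without the third cerebellum array), 4 to 9 relative probe sets in *Usp15*-deficient mice (4 without the third cerebellum array) and 6 to 8 in wild-type mice (6 or 7 without any array other than the first muscle array). The causes were not tested. Several of the probe sets that differ from their gene are dim, and the number of arrays limits what could be called.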
